A study of Mus musculus with 2 samples.

Results

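The miR-34 family of microRNAs (miRNAs) was followed in the heart of old mice through its 3 genes, Mir34a, Mir34b and Mir34c. They were taken by gene name from 2202 miRNA genes in the deposited count tables. The samples were 2 small RNA libraries made from total RNA of heart tissue of adult males aged 18 to 20 months, of the F1 hybrid strain B6CASTF1/J, with no treatment or altered allele named in the labels. Both belong to 1 group and are labelled biological replicates 1 and 2. Their biosamples differ but the donor record is the same, so the spread between them may be technical and does not measure the spread between animals. Without a younger group, no comparison by age was possible.

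A miRNA is cut from a hairpin in a longer transcript and guides repression of messenger RNAs that pair with its seed, the stretch near its 5′ end. The miR-34 genes are textbook targets of the transcription factor p53, and their miRNAs repress messages for cell cycle and survival proteins such as cyclins, Bcl2 and the deacetylase Sirt1. Mir34a is made in most tissues and is known in the heart for its part in ageing and in the loss of cardiomyocytes after injury. Mir34b and Mir34c come from 1 shared primary transcript and are best known from testis and from epithelia that bear cilia. The miR-449 genes, in a gene of multiciliated cells, carry the same seed.

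Mature sequences in the RefSeq table (build GRCm38.p6) show what the family shares and where its loci part. They are written 5′ to 3′ with the seed, bases 2 to 8, in capitals.
mmu-miR-34a-5p: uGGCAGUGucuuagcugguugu
mmu-miR-34b-5p: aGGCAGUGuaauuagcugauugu
mmu-miR-449a-5p: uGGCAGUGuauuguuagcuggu
mmu-miR-449c-5p: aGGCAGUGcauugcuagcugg
mmu-miR-34a-3p: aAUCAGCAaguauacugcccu
mmu-miR-34b-3p: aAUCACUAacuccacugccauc
mmu-miR-34c-3p: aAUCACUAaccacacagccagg
The first 4, all from the 5′ arm, have 1 seed. The strand mmu-miR-34c-5p is named only. On the 3′ arm the seed differs between the loci: miR-34b-3p and miR-34c-3p share one, and miR-34a-3p has another that no other mature miRNA in the table holds. Over their 22 bases, miR-34b-3p and miR-34c-3p are alike at 17 positions. The strands miR-34a-5p and miR-34b-5p are 4 single-base edits apart, counting insertions.

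The hairpins themselves are what the deposited counts refer to, since each gene has 1 count for both arms together. In the hairpins below, capitals mark the 7 bases of the 5′ seed of miR-34a, which occur once in each.
Mir34a: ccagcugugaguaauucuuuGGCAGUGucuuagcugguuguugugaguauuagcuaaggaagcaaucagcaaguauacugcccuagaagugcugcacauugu
Mir34b: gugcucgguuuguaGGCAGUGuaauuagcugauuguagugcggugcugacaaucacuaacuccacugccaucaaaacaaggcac
Mir34c: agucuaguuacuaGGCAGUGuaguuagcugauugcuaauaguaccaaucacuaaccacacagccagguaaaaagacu
No gene count holds reads with several mapping places, so copies in other hairpins matter for the levels. Mir34b and Mir34c have no stretch in common longer than 11 bases, and Mir34a shares at most 8 bases with either. Against all 2202 annotated hairpins, the longest stretch was 12 bases for Mir34a and 11 bases for Mir34b and for Mir34c, and no hairpin shared 22 bases with any of them. Copies outside annotated hairpins were not analysed here.

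Mir34a (ENSMUSG00000065493.1) is on the plus strand of chromosome 4 at 150068454 to 150068555 of mouse build GRCm38 (mm10), a hairpin of 102 bases. Its last 17 bases overlap an exon of Gm37795, a transcript on the same strand that the annotation marks as still to be checked by experiment. No other annotated gene lies within 10 kb. Mir34b (ENSMUSG00000065492.1) is on the minus strand of chromosome 9 at 51103562 to 51103645. Mir34c (ENSMUSG00000065587.1) follows 451 bases downstream at 51103034 to 51103110. Both lie in an intron of Btg4, a gene for a partner of the messenger RNA deadenylation machinery, which runs on the opposite strand. The protein-coding gene 4833427G06Rik starts 955 bases past Mir34c on the same strand as the cluster.

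**Figure D1:**
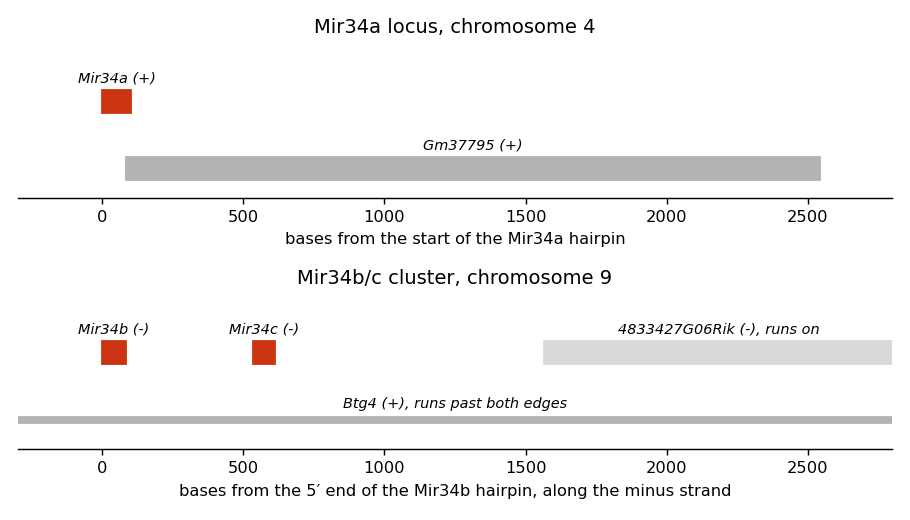
Map of the Mir34a locus (top) and the Mir34b/c cluster (bottom), with distance in bases on each horizontal axis and the strand of each gene in brackets; height has no meaning. Mir34a overlaps the start of Gm37795 by 17 bases, while Mir34b and Mir34c sit 451 bases apart opposite Btg4.

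The 3 genes differed widely in level, and Mir34a held nearly all reads of the family in both libraries. Mir34a had 6274 reads in replicate 1 and 27928 in replicate 2. As reads per 1000000 reads in miRNA genes (CPM), these are 2066 (95% Wilson interval 2015 to 2118) and 5285 (5223 to 5347). It ranked 45 and 28 among the 2202 genes by counted reads. Reads with several mapping places, 40.7% and 32.5% of all reads, are in no gene count, so miRNAs with gene copies may rank too low. Among the counts as they stand, Mir34a was abundant in both libraries without being among the leading ones. Its mean was 3675 ± 2276 CPM (SD, n = 2), and the higher value was that of replicate 2.

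Mir34c had 30 reads in replicate 1 and 500 in replicate 2, or 9.88 CPM (6.92 to 14.1) and 94.6 CPM (86.7 to 103). Its rank went from 248 to 146. The mean of 52.2 ± 59.9 CPM (SD, n = 2) has an SD above the mean, because nearly all reads came from replicate 2. Mir34b, from the same primary transcript, had 15 reads in replicate 1 and 19 in replicate 2, or 4.94 CPM (2.99 to 8.15) and 3.60 CPM (2.30 to 5.62). The intervals overlap, and the mean was 4.27 ± 0.950 CPM (SD, n = 2). These few reads lie above the floor of 3 reads, the limit set by a count of 0 (0.988 CPM in replicate 1 and 0.568 CPM in replicate 2). Counting error alone is in these intervals and floors, because each rests on the count of 1 library. The labels name no molecular identifiers, so copies of 1 molecule may be counted as separate reads.

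All 3 genes had at least 10 reads in both libraries, as did 321 of all 2202. Total depth was 3037063 reads in miRNA genes for replicate 1 and 5284446 for replicate 2, with 615 and 674 genes having any read. The 3 markers of cardiac muscle, which lie in cardiac myosin genes, had reads in both libraries. Mir208a and Mir499 had 5184 and 5559 CPM in replicate 1 and 9154 and 5487 CPM in replicate 2. Mir208b was far lower, at 50 CPM in replicate 1 and 116 CPM in replicate 2.

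Reads on the other strand did not bear on these levels. Mir34a and Mir34c had 0 reads on the opposite strand in either library, and their counts were the same in the column for either strand (6274 and 27928, 30 and 500). Mir34b had 2 opposite-strand reads in replicate 1 and 0 in replicate 2, which is under the floor of 3. No miRNA gene is annotated opposite any of the 3, and none of their reads was lost to ambiguous assignment, since the either-strand count equalled the sum of both strands. Btg4 is annotated across the Mir34b/c cluster on the other strand, and almost no short reads were counted in that direction. Whether Btg4 is transcribed in this tissue was not tested.

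**Figure D2:**
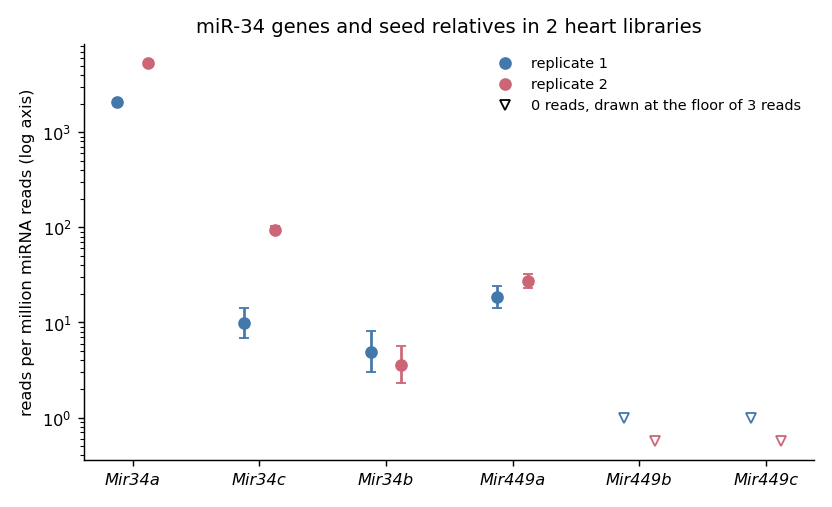
Level of each miR-34 gene and of the miR-449 genes with the same seed, in reads per 1000000 miRNA reads on a log axis; points are single libraries and bars 95% Wilson intervals. Mir34a stands at 2066 and 5285, Mir34c at 9.88 and 94.6, Mir34b at 4.94 and 3.60, and the open triangles mark 0 reads, drawn at the floor.

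Within each library the 2 loci were compared directly, a ratio that scaling between libraries cannot move. Mir34a exceeded the sum of Mir34b and Mir34c 139-fold in replicate 1, with 6274 against 45 reads (exact 95% interval 104 to 191). In replicate 2, with 27928 against 519 reads, the excess was 53.8-fold (49.3 to 58.8). On the log2 scale the ratio averaged 6.44 ± 0.97 (SD, n = 2), several times the spread between the libraries. No p-value was computed, because the smallest that an exact sign-flip test reaches with a pair of libraries is 0.5. The intervals of both libraries do not overlap: the ratio was 2.59 times as high in replicate 1 as in replicate 2 (95% interval 1.91 to 3.60). Both mature arms are of nearly equal length across the family, so reads were not divided by length. Per hairpin base the mean log2 ratio was 6.05.

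As shares of the family, Mir34a made up 99.3% of reads in replicate 1 and 98.2% in replicate 2, with 95% Wilson intervals of 99 to 99.5 and 98 to 98.3. Mir34c took 0.475% (0.333 to 0.677) and 1.76% (1.61 to 1.92). Mir34b took 0.237% (0.144 to 0.391) and 0.0668% (0.0428 to 0.104). Between the libraries, then, the share of Mir34c was higher in replicate 2 and that of Mir34b higher in replicate 1.

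Counting all 6 genes of the shared 5′ seed, the miR-449 cluster added little. Mir449a had 56 reads in replicate 1 and 144 in replicate 2, or 18.4 CPM (95% Wilson interval 14.2 to 23.9) and 27.2 CPM (23.1 to 32.1). Mir449b and Mir449c, its neighbours on chromosome 13, had 0 reads in both libraries, which allows up to 0.988 CPM in replicate 1 and 0.568 CPM in replicate 2. Mir34a held 98.4% and 97.7% of the reads of the 6 genes. In replicate 1 the order was Mir34a, Mir449a, Mir34c and Mir34b, and in replicate 2 Mir34c stood above Mir449a. Intervals of Mir34c and Mir34b overlapped in replicate 1, and those of other neighbours in these orders did not.

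Each gene was then compared between the libraries with an exact two-sided binomial test, run on every gene whose summed count reached 10 reads. The test compares a pair of libraries against counting error and compares no conditions. Mir34a was 2.56-fold higher in replicate 2 (95% interval 2.49 to 2.63, log2 ratio 1.36), with a p-value too small for the number format and written as 0. Mir34c was 9.58-fold higher in replicate 2 (6.63 to 14.3, log2 ratio 3.26; adjusted p = 3.14e-62, exact binomial test, Benjamini-Hochberg). For Mir34b the log2 ratio was -0.46 (95% interval -1.51 to 0.62; adjusted p = 0.498, exact binomial test), and the interval still holds a difference in either direction.

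So 2 of 3 members were called, both higher in replicate 2. Of all 424 tested genes, 52.8% were called, 30.9% as higher in replicate 2, and the median log2 ratio was 0.07. With reads per library in place of reads in miRNA genes as totals, that median became -0.18, and the log2 ratios of Mir34a and Mir34c became 1.11 and 3.01. The share of calls that were higher in replicate 2 then went from 58.5% to 35.8%. With the spread between the libraries taken into account, by the exact test of edgeR with a common dispersion from the same pair, 2.83% of genes were called, 2.36% as higher in replicate 2. Mir34c was among these (adjusted p = 0.0298, edgeR) and Mir34a was not (adjusted p = 0.913, edgeR). That dispersion was estimated from the same difference that the test compares, so it is no independent measure of the spread between replicates.

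**Figure D3:**
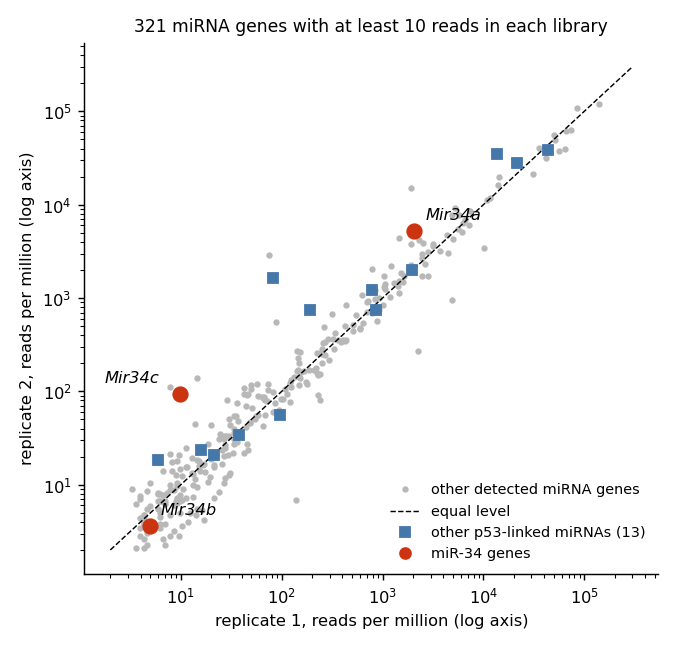
Level in replicate 1 (horizontal) against replicate 2 (vertical), both in reads per 1000000 on log axes, for the 321 miRNA genes with at least 10 reads in each library; the dashed line marks equal levels. Mir34a (2066 and 5285) lies above the line among abundant genes, Mir34c (9.88 and 94.6) stands far above it, and Mir34b (4.94 and 3.60) lies at the lower end.

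Set beside genes of a like level (mean CPM within 1 log2 unit), the shift of Mir34a was at the upper end. Among 28 such genes the log2 ratio ran from -2.37 to 1.57 with a median of 0.10, and 1 of them, Mir221, had a higher ratio than Mir34a. For Mir34c there were 66 genes, from -4.35 to 5.25 with a median of 0.23, and 3 had a higher ratio: Mir182 (5.25), Mir183 (3.82) and Mir26a-1 (3.27). For Mir34b, 58 of 95 genes had a higher ratio. The exact binomial test called 89.3% of the genes at the level of Mir34a, 63.6% at that of Mir34c and 27.4% at that of Mir34b. Mir221, Mir182, Mir183 and Mir26a-1 were named here after their values were seen.

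The 2 genes of the Mir34b/c cluster did not move together between the libraries. In replicate 1, 30 reads of Mir34c against 15 of Mir34b gave a ratio of 2 (exact 95% interval 1.04 to 4). In replicate 2, 500 reads against 19 gave a ratio of 26.3 (16.7 to 44.1). The ratio was thus 13-fold higher in replicate 2 (95% interval 5.58 to 30.2). On the log2 scale the shift of Mir34c exceeded that of Mir34b by 3.72.

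This gap was the widest among neighbouring hairpins in the data. There were 108 pairs of adjacent miRNA genes on 1 strand, at most 10 kb apart, with both genes tested. In the other 107 pairs the difference had a median of 0.61 and reached at most 2.76. In the 53 of them whose lower member had at most 100 reads, as Mir34b does, the median was 0.81 and the highest value again 2.76. The next pairs, named after their values were seen, were Mir493 with Mir337 (2.76), Mir376b with Mir376a (2.72) and Mir141 with Mir200c (2.70). These are descriptions of 2 libraries, and the pairs are not independent of each other where 1 cluster gives several.

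**Figure D4:**
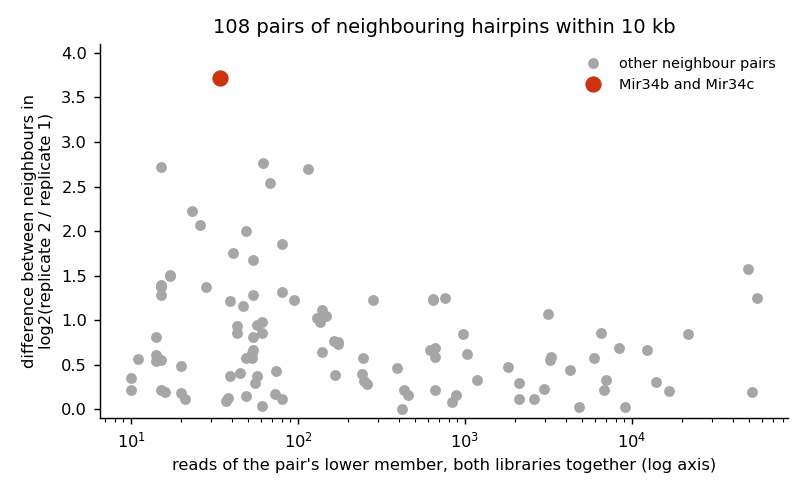
Difference between neighbouring hairpins in log2(replicate 2 / replicate 1) (vertical) against the reads of the pair's lower member in both libraries together (horizontal, log axis), 1 point per pair. Mir34b and Mir34c differ by 3.72, and the other 107 pairs by at most 2.76.

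Markers of other cell types also differed between the libraries. The 7 epithelial marker genes (the 5 of the miR-200 family, Mir203 and Mir205) had a summed level of 298 CPM in replicate 1 and 3874 CPM in replicate 2. Of these, 4 were called as higher in replicate 2 and 2 as higher in replicate 1, beside 30.9% and 21.9% of all tested genes, and none was at 0 reads in both libraries. Most of the sum in replicate 2 came from Mir205 (7 and 10372 reads) and Mir200c (251 and 8728 reads). Multiciliated cells, a known site of Mir34b and Mir34c, had 1 marker of 3 with reads, Mir449a, with a log2 ratio of 0.56 (adjusted p = 0.0245, exact binomial test), against 3.26 for Mir34c. Red blood cell markers (Mir144 and Mir451a) had a sum of 7165 CPM in replicate 1 and 1219 CPM in replicate 2. The 4 leukocyte markers had 6557 and 7238 CPM, and the 3 cardiac muscle markers 10793 and 14757 CPM. Endothelial Mir126a had 85244 and 109823 CPM, and Mir206 of skeletal muscle 6.26 and 4.92 CPM. The part of these cell types in the levels of Mir34a and Mir34c was not tested, and more cells of a type cannot be told apart from more RNA per cell.

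Genes whose levels in both libraries were nearest to each member were found by distance in log2 CPM over the 2 libraries, among genes with at least 10 reads in each. For Mir34a these were Mir140 (distance 0.39; 2322 and 4141 CPM), Mir214 (0.48) and Mir15b (0.52). For Mir34c they were Mir183 (0.40; 7.90 and 111 CPM), Mir26a-1 (0.79) and Mir29b-1 (1.18), of which Mir26a-1 and Mir29b-1 have a gene copy with the same mature miRNA. Mir34b had many close neighbours among scarce genes, led by Mir3098 (0.08), Mir6934 (0.12) and Mir5122 (0.18). With 2 libraries, this likeness covers level and 1 difference only.

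Among 13 other miRNAs linked to p53, either as products of its target genes or through p53-aided processing, levels spanned from under those of Mir34c to far above those of Mir34a. All 13 had at least 10 reads in both libraries. Of them 7 were called as higher in replicate 2, 3 as higher in replicate 1, and 3 were not called. The shares over all tested genes were 30.9% and 21.9% in these directions. The median log2 ratio of the 13 was 0.36, against 0.07 over all tested genes. By the exact test of edgeR, 1 of the 13, Mir200c, was called, where 2.83% of all tested genes were.

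The 4 most abundant of that list were Mir143, Mir149, Mir22 and Mir145a. Mir143, which with Mir145a marks smooth muscle and whose processing p53 aids, stood at 43725 CPM in replicate 1 and at 38639 CPM in replicate 2 (log2 ratio -0.18). Mir149 had 21593 and 27696 CPM (log2 ratio 0.36). Mir22, abundant in heart and skeletal muscle, had 13626 and 34813 CPM, and its log2 ratio of 1.35 was close to the 1.36 of Mir34a. Mir145a had 1968 and 2001 CPM (log2 ratio 0.02), so that it lay beside Mir34a in replicate 1 and under it in replicate 2. The p53 targets Mir192, Mir194-1, Mir194-2 and Mir215, which are known from gut and liver, had between 15.8 and 95.8 CPM in the 2 libraries. By these counts Mir34c was beneath them all in replicate 1 and above them all in replicate 2. Mir194-1 and Mir194-2 share a mature miRNA, so reads that map to both are in neither count and their levels may be too low.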

How the data were processed

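The authors deposited 1 table of raw read counts per miRNA gene for each library, with no normalization. Mapping was to mm10, per the labels, with genes of GENCODE release M21, per the deposited text. Aligner, counter, versions and trimming: not given in the sources used here. The 4 summary lines, left out of totals and tests, held 67.9% and 73% of the reads of replicates 1 and 2. Of all reads, 40.7% and 32.5% mapped to several places, and 19.4% and 34.3% were unmapped. The strand column with more miRNA reads was taken as sense. All 2202 IDs matched GENCODE. RefSeq's table held the 3 hairpins of the members and 5 of their mature miRNAs, with mmu-miR-34c-5p named only.

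Genes whose summed count reached 10 reads (424) were compared between libraries by the exact binomial test given library totals, adjusted by Benjamini-Hochberg over all of them (threshold 0.05), with 0.5 reads in place of 0 in log2 ratios. Intervals are 95% Wilson (shares), Clopper-Pearson (ratios) or conditional exact (ratios between libraries). The edgeR exact test used TMM scaling and the common dispersion (biological coefficient of variation 40.8%). Versions were edgeR 4.0.16, DESeq2 1.42.0 (size factors), R 4.3.3, Python 3.11.15 and scipy 1.17.1. The binomial comparison was run on simulated counts that held counting error only, scaled by the totals of unchanged genes. This cannot show how it behaves with a spread between libraries. Named were the members, the 3 genes nearest to each member and miRNA genes within 10 kb. Of each list, up to 4 most abundant genes among those matched by name were named (all of a list of 3). Mir146, Mir18 and Mir92-1 were named besides. Members, lists and markers were chosen with earlier results of these data known, and the comparisons with genes of a like level and with neighbour pairs after seeing the values.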

Additional observations from a re-analysis of the deposited data

How the results depend on the processing

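With 2 libraries of 1 group, precision rests on counting error and on 1 difference between libraries, and for Mir34b on 34 reads in all. Between the libraries, 28 alternative values were tallied, for the count of genes that differed and the log2 ratio of each member. Of these, 26 kept their direction and side of the threshold, or, for the count, stayed within 1.5 times. Part of this tally could hardly change. A different read filter leaves the log2 ratio of a member as it was, and Mir34a and Mir34c have equal either-strand and sense counts. The tally therefore says little about how firm the calls are. Per 1000000 reads of any kind in a library, the summed level of the family was 1060 in place of 3732, and the level of Mir34c 14.4 in place of 52.2, since the denominator then holds reads outside miRNA genes. Leaving out either library, which with 2 libraries only gives the value of the other, put that sum at 2081 or 5383 CPM and the mean log2 ratio of Mir34a to the Mir34b/c cluster between 5.75 and 7.12. With Mir34b alone as the cluster this log2 ratio was 9.61, and with Mir34c alone 6.76. By edgeR's exact test at the common dispersion, 12 genes differed between the libraries in place of 224 (31 at an unadjusted p under 0.05), and the call of Mir34a was lost. The other 6 settings gave 198 to 226 genes, and the call of Mir34c held in all. Reads per hairpin base were added as a setting after the data were seen. Leaving out a library gives no comparison between libraries, which was not run. No paired analysis was possible because there is 1 group.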

Other observations

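Other miRNAs linked to ageing of the heart and its vessels were compared between the same 2 libraries. Of 13 listed genes, 10 were matched by name. Mir146a, Mir18a and Mir92a-1 were not, because the annotation used here names them Mir146, Mir18 and Mir92-1. They were left out of the counts and the median below. Mir146 was called as higher in replicate 2 (log2 ratio 0.27) and Mir92-1 as higher in replicate 1 (-0.56). Mir18 was not called (-0.20). Mir92-1 (4454 and 3016 CPM) and Mir146 (1535 and 1849 CPM) were above Mir17 in both libraries. Of the 10, 6 were higher in replicate 2 by the exact binomial test, 2 did not pass it and 2 fell short of 10 reads. Over all tested genes, 52.8% were called, 30.9% as higher in replicate 2. The median log2 ratio of the tested genes among the 10 was 0.63, against 0.07 over all tested genes. Mir146, Mir18 and Mir92-1 all lie under that 0.63, so the median would be lower with them. Mir29a, a repressor of collagen messages, stood at 14155 CPM in replicate 1 and at 19670 CPM in replicate 2. Mir21a, known from injured and fibrotic tissue, had 1899 and 15190 CPM and was the only one of the 10 called by the exact test of edgeR (adjusted p = 0.0401, common dispersion). Mir17 had 1066 and 1397 CPM, and Mir29c had 623 and 1070 CPM. Mir34a, at 2066 and 5285 CPM, was above Mir21a in replicate 1 and under it in replicate 2.

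Mir217, a repressor of Sirt1 in endothelium as Mir34a is, had 1 read in replicate 1 and 15 in replicate 2. Its adjusted p was 0.0188 by the exact binomial test over all tested genes, and 0.856 by edgeR's exact test at the common dispersion. The count in replicate 1 is under the floor of 3 reads. Mir217 was chosen after its values were seen.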
